A study of Mus musculus with 6 samples.

Results

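Genes for the uptake, binding and activation of long-chain fatty acids were followed in mouse liver. They are the 10 genes *Cd36*, *Fabp1*, *Fabp2*, *Fabp4*, *Slc27a2*, *Slc27a4*, *Acsl1*, *Acsl3*, *Acsl4* and *Acsl5*, found by symbol among the 24421 genes of the authors' deposited table, and all 10 had a row. Hepatic mRNA was sequenced from 3 WT mice and 3 Pai-1+/- mice, which carry 1 disrupted copy of the gene for plasminogen activator inhibitor 1 (PAI-1). All were 21-week-old male C57BL/6 mice on standard chow without restriction, and the heterozygotes came from breeding Pai-1-/- with WT animals, with controls described as littermates. Strain and age are given as in the sample labels, and the paper's methods name the substrain C57BL/6 J and differ slightly on the age. The study asked how partial PAI-1 deficiency alters hepatic gene expression. The genotypes were not compared here, because the count columns of the single animals carry numbers that match no sample label, so no column could be given a genotype. Every level below is the authors' mean over the libraries of both genotypes, with no SD, no n per genotype and no test, and the order of the genes is an order of these means alone.

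Long-chain fatty acids reach hepatocytes from plasma, and several families of proteins act on them in turn. CD36 is a membrane receptor that binds fatty acids and oxidized lipoproteins. The SLC27A proteins, or fatty acid transport proteins, promote uptake and have acyl-CoA synthetase activity. The fatty acid-binding proteins (FABPs) are small cytosolic carriers. The ACSL enzymes are long-chain acyl-CoA synthetases, which join a fatty acid to coenzyme A so that it can be oxidized, stored or built into membranes. Liver is known for high amounts of FABP1, the liver type, and of ACSL1.

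The table gives a mean normalized count per gene, that is, counts divided by a size factor and averaged over the libraries. Added over all genes these means come to 30045982, of which the 10 genes take 0.793%. To compare genes with each other, each mean was divided by the length of the longest annotated transcript and scaled so that the 23334 genes with a length sum to 1000000; this unit is written ppm. On this scale the 10 genes sum to 11993 ppm. All 10 had a mean normalized count above 10, against 53.1% of all genes, and 9 of 10 had one above 1000, against 16.0% of all genes. The median level per length was 133 ppm over the 10 genes and 0.585 ppm over all genes. The genes were listed for their known roles in lipid metabolism and with earlier results of these data known. High levels in liver are therefore a description of the list.

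With the longest transcript as the length, the 3 most abundant genes belonged to different families. *Fabp1* was highest with 8301 ppm, *Slc27a2* followed with 2112 ppm, and *Acsl1* was the third with 989.9 ppm. Together they took 95.1% of the summed level per length of the 10 genes. *Fabp1* ranked 13 among all genes with a length, *Slc27a2* ranked 64 and *Acsl1* ranked 137. The remaining levels per length were 239.9 ppm for *Fabp2*, 183 ppm for *Acsl5*, 83.9 ppm for *Cd36*, 32.1 ppm for *Acsl4*, 28.2 ppm for *Slc27a4*, 19.5 ppm for *Acsl3* and 3.40 ppm for *Fabp4*. Several neighbours in this order lay close together. *Acsl4* was 1.14-fold above *Slc27a4* and *Fabp2* was 1.31-fold above *Acsl5* per length, and whether these pairs differ beyond the spread between mice was not tested. The widest step was the 5.73-fold gap between *Acsl3* and *Fabp4*, which rested on the transcript length taken for *Fabp4* and was 1.21-fold with its coding transcript.

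**Figure D1:**
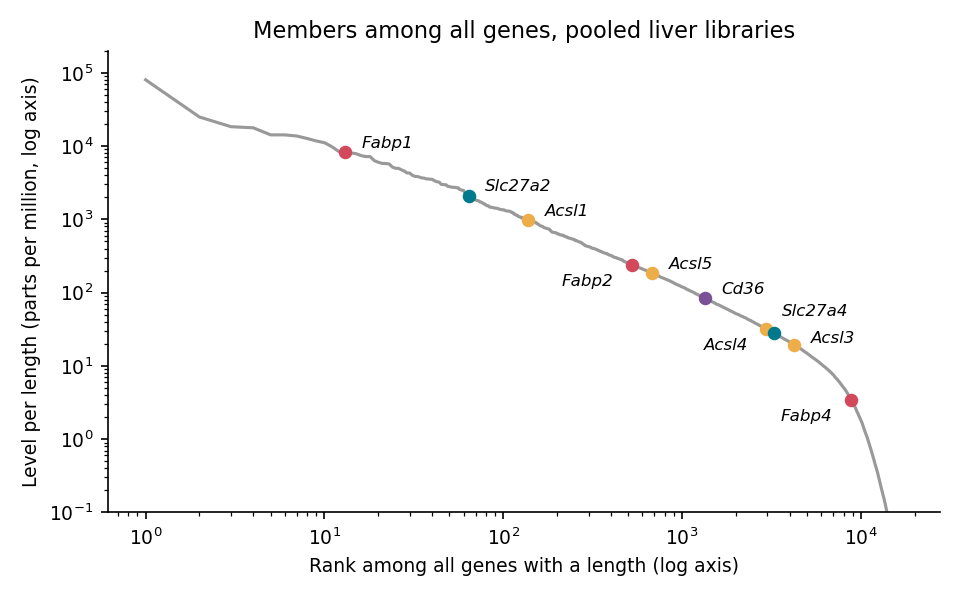
Level per length in ppm (vertical, log axis) of every gene with a length in order of rank (horizontal, log axis), with the vertical axis ending below the lowest of the 10 genes. The grey line is all genes and the coloured points are the 10 genes, from *Fabp1* at rank 13 to *Fabp4* at rank 8838, with no error bars because each value is a mean over the libraries.

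The order depended on whether and how length was taken into account. Before division by length, *Slc27a2* had the highest mean normalized count, 81388, ahead of *Acsl1* with 74217 and *Fabp1* with 60633. *Fabp1* has an annotated transcript of only 553 bases, whereas that of *Slc27a2* has 2918 bases. Its share of the 10 genes was 25.4% of the counts and 69.2% of the level per length. For *Acsl1* and *Fabp4* the longest annotated transcript is one with a retained intron, which overstates the length of the mRNA. With the length of the transcript that holds the longest coding sequence, a choice made after the data were seen, *Acsl1* rose to 1334 ppm and *Fabp4* to 14.9 ppm, and the order of the 10 genes was the same. With the median length over a gene's annotated transcripts, only 3 genes kept their rank. *Acsl1* with 3494 ppm was then just above *Fabp1* with 3474 ppm, *Acsl5* with 666 ppm was above *Fabp2* with 100.4 ppm, and *Fabp1* took 35.0% of the set.

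**Figure D2:**
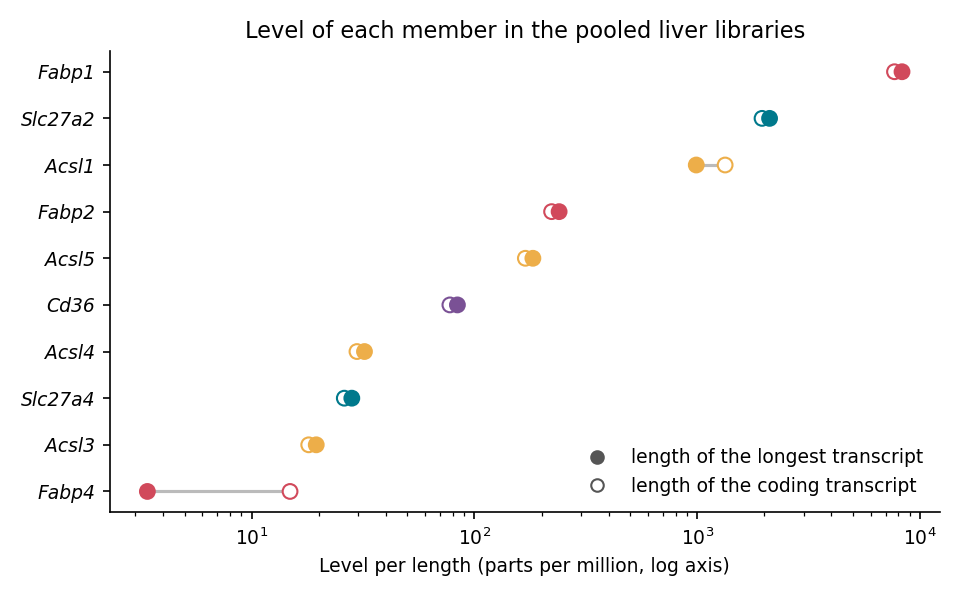
Level per length in ppm (horizontal, log axis) of the 10 genes, coloured by family, with the longest transcript (filled) or the transcript with the longest coding sequence (open) as the length. The 2 points nearly coincide for 8 genes, while *Fabp4* lies at 3.40 and 14.9 ppm and *Acsl1* at 989.9 and 1334 ppm, and no error bars are drawn because each value is a mean over the libraries.

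*Cd36*, the single gene of the uptake receptor, lies at chr5:17781690-17888801 on the minus strand (GRCm38, which is mm10) and has 15 exons in its coding transcript. Its mean normalized count was 3765. Per length it was 2.98-fold above the transporter *Slc27a4* and far below *Slc27a2*. CD36 is also made by macrophages, endothelial cells and adipocytes, and a level in whole liver does not show which cells hold the mRNA.

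Of the transporters, *Slc27a2* (chr2:126552407-126588243, plus strand) encodes FATP2, which also activates very long-chain fatty acids, and *Slc27a4* (chr2:29802634-29817522, plus strand) encodes FATP4, a widely expressed member. The mean normalized counts were 81388 and 1508, and per length the levels were 2112 ppm and 28.2 ppm. Over the 6 *Slc27a* genes of the table, *Slc27a2* took 65.2% of the level per length and *Slc27a5*, the bile acyl-CoA synthetase of liver, took 33.1%. *Slc27a4* took 0.870%, close to the 0.748% of *Slc27a1*, the FATP1 gene of muscle and fat. *Slc27a3* and *Slc27a6* had mean normalized counts of 19.8 and 5.77. No other gene of the family reached 1% of its level per length.

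Of the binding proteins, *Fabp1* (chr6:71199827-71205023, plus strand) encodes the liver type, *Fabp2* (chr3:122895072-122899506, plus strand) the intestinal type, and *Fabp4* (chr3:10204088-10208576, minus strand) the type of adipocytes, macrophages and capillary endothelium. Their mean normalized counts were 60633, 3058 and 190.2. Per length *Fabp1* was 34.6-fold above *Fabp2*, and *Fabp2* was 70.5-fold above *Fabp4*, or 14.9-fold with the coding transcript as the length. *Fabp1* took 97.0% of the level per length of the 9 *Fabp* genes in the table. *Fabp5* and *Fabp7*, the epidermal and brain types, had mean normalized counts of 150.2 and 78.6, and *Fabp3*, *Fabp9* and *Fabp12* lay between 0.150 and 1.52. *Fabp6*, the ileal bile acid-binding protein gene, was listed at 0. *Fabp4* lies in a group of 4 *Fabp* genes that spans 288.6 kb of chromosome 3, and mean normalized counts within it ran from 0.150 for *Fabp9* to 190.2 for *Fabp4*. *Fabp2* is on the same chromosome but far from this group.

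Of the synthetases, *Acsl1* (chr8:46471037-46536051, plus strand) and *Acsl5* (chr19:55251938-55297720, plus strand) encode enzymes of the outer mitochondrial membrane and endoplasmic reticulum. *Acsl3* (chr1:78657825-78707743, plus strand) encodes an enzyme of the endoplasmic reticulum and lipid droplets, and *Acsl4* (chrX:142317993-142390535, minus strand) one that prefers arachidonic acid. The mean normalized counts were 74217 for *Acsl1*, 10252 for *Acsl5*, 2238 for *Acsl4* and 1017 for *Acsl3*. *Acsl1* took 80.8% of the level per length of the 5 *Acsl* genes and *Acsl5* took 14.9%, while *Acsl6*, the brain form, had a mean normalized count of 4.51. *Acsl1* was 5.41-fold above *Acsl5* and 50.8-fold above *Acsl3* per length. With the coding transcript as the length these ratios were 7.88-fold and 74.0-fold, and *Acsl1* took 86.0% of the family.

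**Figure D3:**
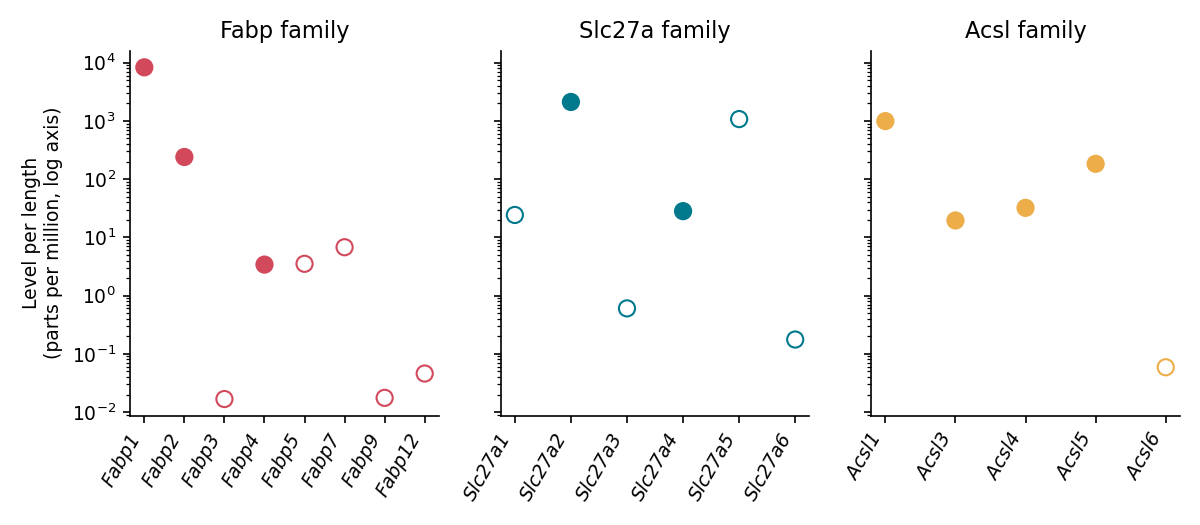
Level per length of the longest transcript in ppm (vertical, log axis) of each gene of the *Fabp*, *Slc27a* and *Acsl* families above 0, with filled points for the genes followed here and open points for their relatives. *Fabp1*, *Slc27a2* and *Acsl1* lead their families, *Slc27a5* with 1073 ppm is the highest of the relatives, *Fabp6* is left out because it was listed at 0, and each point is a mean over the libraries with no error bar.

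The members of a family differed in their coding sequence. Between the 4 *Acsl* genes the coding sequences were from 58.2% to 67.6% identical over the aligned bases, with *Acsl3* and *Acsl4* the most alike and *Acsl1* closest to *Acsl5* (64.4%). *Slc27a2* and *Slc27a4* were 59.1% identical, and the 3 *Fabp* genes from 55.7% to 59.3%. Reads were 75 bases long, and no word of 75 bases in the longest transcript of 7 of the 10 genes occurs in a transcript of another gene. The exceptions were *Slc27a2* with 12.2% of its words, *Acsl5* with 3.62% and *Acsl3* with 3.43%, and these are shared with the overlapping genes *Gm26697*, *Zdhhc6* and *Utp14b*. *Gm26697* and *Zdhhc6* lie on the opposite strand, sharing 419 and 404 exonic bases, while *Utp14b* shares 244 bases on the same strand. *Acsl1* shares 1039 exonic bases with *Gm45244* on the opposite strand. The longest transcripts of *Acsl1* and *Fabp4* are retained-intron forms of 6 exons and 1 exon. Their coding transcripts have 21 and 4 exons, so parts of these were not checked for shared words. Whether reads were counted by strand is not given in the sources used here, so reads of *Slc27a2*, *Acsl5* and *Acsl1* may not have been told apart from those of the genes opposite them. The bases that *Acsl3* shares with *Utp14b* could not be separated by strand. The mean normalized counts of *Zdhhc6* and *Utp14b* were 2878 and 67.4.

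The starts of the genes differed in base composition. The 250 bases before the RefSeq start (GRCm38.p6) were examined for 9 of the 10 genes, with 2 starts for *Acsl1*. These windows held from 35.6% G and C in *Fabp2* to 75.6% in *Acsl3*, with a median of 52.4% over 32851 promoters. Those of *Fabp1*, *Fabp2* and *Acsl1* are shown because the first pair are the most and second most abundant binding proteins while *Acsl1* leads the synthetases. Capitals mark matches, on either strand, to TATAAA (the TATA box), GGGCGG (the GC box), CCAAT (the CCAAT box), CACGTG (the E box), AGGTCA (the core site of nuclear receptors), TTANGTAA (the D box of clock-controlled PAR bZIP factors) and the direct repeat 1, a pair of core sites AGGNCA with any base between, which nuclear receptors such as PPAR-alpha bind. The *Fabp1* window is chr6:71199629-71199878 on the plus strand, that of *Fabp2* is chr3:122894822-122895071 on the plus strand, and that of the upstream *Acsl1* start is chr8:46470787-46471036 on the plus strand.
Fabp1: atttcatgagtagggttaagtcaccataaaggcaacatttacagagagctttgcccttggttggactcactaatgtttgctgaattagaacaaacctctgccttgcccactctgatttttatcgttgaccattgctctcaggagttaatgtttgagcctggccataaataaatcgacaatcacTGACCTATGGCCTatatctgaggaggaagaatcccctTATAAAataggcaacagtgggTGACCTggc
Fabp2: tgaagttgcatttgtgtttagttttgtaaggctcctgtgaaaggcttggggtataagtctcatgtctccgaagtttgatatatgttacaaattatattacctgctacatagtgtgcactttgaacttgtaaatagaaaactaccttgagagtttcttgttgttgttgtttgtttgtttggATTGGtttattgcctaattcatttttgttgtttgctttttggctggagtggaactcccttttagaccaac
Acsl1: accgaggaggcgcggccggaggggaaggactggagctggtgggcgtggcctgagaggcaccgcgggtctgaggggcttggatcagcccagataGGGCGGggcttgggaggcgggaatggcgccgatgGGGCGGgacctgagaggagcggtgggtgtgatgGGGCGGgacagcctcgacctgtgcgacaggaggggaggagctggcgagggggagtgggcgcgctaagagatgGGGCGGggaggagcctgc

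The *Fabp1* window was the only one of the 10 to hold TATAAA, 30 bases before the start, and the only one to hold the direct repeat 1, as its reverse complement 67 bases before the start. These motifs occur in 12.4% and 0.338% of all promoter windows. The direct repeat contains 1 of the 2 matches of *Fabp1* to AGGTCA, which 3 of 10 windows and 14.0% of all windows hold. The *Fabp2* window held 1 CCAAT match, a motif in 5 of 10 windows and 33.8% of all windows. The upstream *Acsl1* window held 4 copies of GGGCGG, which was in 6 of 10 windows and 32.7% of all windows. CACGTG (6.02% of all windows) and TTANGTAA (2.06%) were in none of the 10. GENCODE M21 places the start of *Fabp1* upstream of the RefSeq one, at position 71199827, so that TATAAA and the AGGTCA match nearest the RefSeq start lie inside its annotated transcript while the direct repeat lies before it. The windows of *Cd36*, *Slc27a2*, *Acsl5* and the downstream *Acsl1* start lie inside the genes as GENCODE M21 annotates them. For *Cd36* and *Slc27a2* the bases after the window were not found near the start of any annotated transcript. The counts over 10 windows include these windows. A match shows only that the letters are present, and the starts used in these livers were not measured.

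The other genes of the pathway, 33 in a fixed list, had a median level per length of 6.27 ppm. This was below the 133 ppm of the 10 genes and above the 0.585 ppm of all genes. Of these 33, 23 (69.7%) had a mean normalized count above 10, against 53.1% of all genes. Above 1000 were 13 (39.4%), against 16.0% of all genes. The highest were *Scp2*, the sterol carrier protein gene, with 2198 ppm, *Dbi*, which encodes the acyl-CoA-binding protein, with 1426 ppm, and *Slc27a5* with 1073 ppm. The medium-chain synthetase gene *Acsm1* was at 401 ppm and *Acsf2* at 180.3 ppm, whereas *Lpl*, the lipoprotein lipase gene, was at 9.97 ppm, *Cav1* at 5.64 ppm and *Vldlr* at 0.685 ppm. *Acsbg2*, *Acsm4* and *Fabp6* were listed at 0.

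Markers of other cell types were set beside *Cd36*, *Fabp2* and *Fabp4*, since these 3 genes are known from cells other than hepatocytes. All 6 hepatocyte markers had mean normalized counts of at least 56732, reaching 2155546 for *Alb*. All 7 endothelial markers were above 10, from 204.6 for *Lyve1* to 1273 for *Stab2*, as were all 7 Kupffer cell or macrophage markers, from 173 for *Timd4* to 1816 for *Clec4f*, and all 5 stellate cell markers, from 134.9 to 4160. Per length *Cd36* was above all 7 endothelial and all 7 macrophage markers with the longest transcript (83.9 ppm) and the coding transcript (77.6 ppm). The highest of these markers were *Clec4g* and *Clec4f*, with 48.1 and 55.6 ppm, or 51.6 and 51.5 ppm with the coding transcript. The stellate cell marker *Dcn* was above *Cd36* with the coding transcript (165.7 ppm). With the median transcript length *Cd36* with 44.3 ppm was below *Stab2* with 56.0 ppm. Where *Fabp4* stood among the markers per length rested on its transcript length. With the longest transcript, *Fabp4* with 3.40 ppm was below all 7 endothelial markers, the lowest being *Tek* with 4.46 ppm, and below all 7 macrophage markers, the lowest being *Timd4* with 6.03 ppm. With the coding transcript, *Fabp4* with 14.9 ppm was above 6 of 7 endothelial markers, the exception being *Clec4g* with 51.6 ppm, and above 3 of 7 macrophage markers. On that length *Fabp4* was also above 4 of 5 stellate cell, 4 of 4 cholangiocyte and 5 of 6 adipocyte markers. With the longest transcript it was above 2 of 5, 2 of 4 and 4 of 6. Of 6 adipocyte markers 2 were above 10, *Cidea* with 286.4 and *Cfd* with 79.2, while the defining genes *Adipoq* and *Plin1* were at 7.87 and 4.75. Of 5 enterocyte markers, *Apoa4* at 90539 is also a hepatocyte gene, and *Vil1* was at 45.1, *Sis* at 8.72 and *Lct* at 1.42, with *Cdx2* also below 10, beside 3058 for *Fabp2*. The 4 cholangiocyte markers lay between 25.8 and 268. Of the other lists, 1 of 4 muscle, 1 of 3 red cell, 2 of 3 neutrophil and 3 of 4 lymphocyte markers in the table were above 10. The red cell marker above 10 was *Alas2* with 2136, while the globin genes *Hba-a1* and *Hbb-bs* were listed at 0. Why these globin genes were at 0 was not tested, and the zeros are not read as absence of globin mRNA. In whole liver, fewer cells of a type and less RNA per cell cannot be told apart, and the part of each cell type in these means was not tested.

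**Figure D4:**
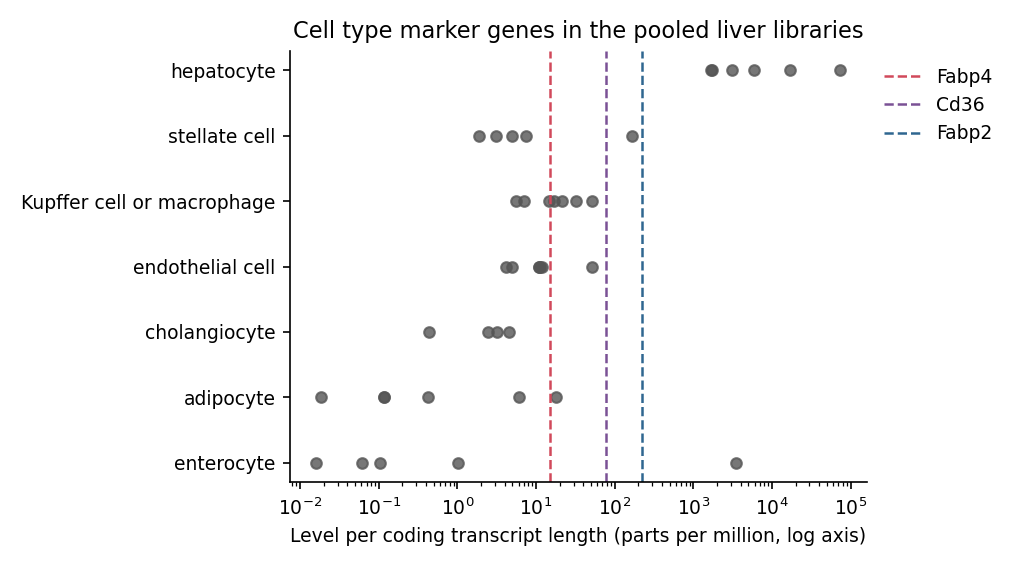
Level per coding transcript length in ppm (horizontal, log axis) of the marker genes of 7 cell types (points, 1 per gene), with dashed lines at *Fabp4* (14.9), *Cd36* (77.6) and *Fabp2* (222). The *Fabp4* line lies above 6 of 7 endothelial, 3 of 7 macrophage, 4 of 5 stellate cell and 4 of 4 cholangiocyte points. It also lies above 5 of 6 adipocyte, 4 of 5 enterocyte and 0 of 6 hepatocyte points. The adipocyte point to its right is *Cidea* with 18.0 ppm. Those to its left include *Cfd* with 6.02 ppm, *Adipoq* with 0.427 ppm and *Plin1* with 0.118 ppm. The coding transcript length was chosen after the data were seen. With the longest transcript *Fabp4* was above 0 of 7 endothelial and 0 of 7 macrophage markers. No error bars are drawn because each value is a mean over the libraries.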

How the data were processed

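Hepatic mRNA libraries of 3 WT and 3 Pai-1+/- mice were sequenced as single-end reads of 75 bases. Per the paper's methods and the submitters' processing notes, reads were aligned to mm10 with STAR and compared with DESeq2 in the RNA Express BaseSpace application. HOMER is also named, and versions, annotation and strand setting are not given in the sources used here. The signal in the authors' deposited table, the only value used, is 1 mean per gene, averaged over the libraries after each count was divided by a DESeq2 size factor. The fold changes, standard errors, test statistics, p-values and status of that table are the authors' own comparison and were not used. The 6 per-animal count columns were not used, because their names match no sample label. The planned edgeR tests therefore could not be run, and library totals and the precision of each mean were not computed, because these columns were not used.

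Lengths, coordinates and transcripts came from GENCODE M21 (GRCm38, the assembly of mm10). Of 24421 symbols, 95.5% matched 1 entry, and these hold 97.5% of the mean counts. Promoter sequences came from RefSeq (GRCm38.p6), with 9 of the 10 genes matched. Coding sequences were aligned end to end with Biopython 1.88. Tables were handled with pandas 2.3.3 and NumPy 2.4.6 in Python 3.11.15, counting intervals came from SciPy 1.17.1, and plots from Matplotlib 3.10.9. The length scaling was run on simulated data with known lengths, which checks the calculation but not which transcript length is right. Genes named are the 10 genes, their family members, genes that overlap them, and fixed lists of other pathway genes, PPAR-alpha targets and cell type markers. Members and lists were chosen with earlier results of these data known. The results of some genes are left out of this text. Alternatives were other transcript lengths, another set of genes in the denominator and levels not divided by length.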

Additional observations from a re-analysis of the deposited data

How the results depend on the processing

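The summed level per length of the 10 genes was 11993 ppm. It was 13602 ppm with the union of exons as the length, 9932 ppm with the median transcript length and 11526 ppm with the transcript that holds the longest coding sequence, the last chosen after the data were seen. With genes above a mean of 10 as the denominator it was 12001 ppm. The share of *Fabp1* in the set was 69.2% per length, 25.4% of counts not divided by length, 66.6% with the coding transcript and 35.0% with the median transcript length, the last pair chosen after the data were seen. The order of the 10 genes was the same under the union, coding transcript and denominator settings, but 3 genes kept their rank with the median transcript length, under which *Acsl1* came first and *Acsl5* rose 3.64-fold, and 4 kept it with counts not divided by length. The changes of genes between genotypes were not fitted under any setting, since no column could be given a genotype. No paired analysis was possible because no column carries a replicate number of the labels.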

Other observations

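Targets of the nuclear receptor PPAR-alpha outside the 10 genes, 15 in a fixed list, all had mean normalized counts above 1000, against 16.0% of all genes. Their median level per length was 627 ppm, and the list ranged from 33.6 to 4733 ppm. These are values over both genotypes, and no comparison was made.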
